A study of Mus musculus with 6 samples.

Results

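The 10 core circadian clock genes Clock, Arntl, Npas2, Per1, Per2, Per3, Cry1, Cry2, Nr1d1 and Dbp were examined in RNA of whole tumour-bearing lungs. They were chosen by name, and all 10 had a row among the 35275 Ensembl genes of the deposited count tables. Balb/c mice were given 250000 4T1 cells through the tail vein; 4T1 is a breast cancer line from that strain, and its cells lodge and grow in lung tissue. The cells given either carried a knockout of PD-L1 (KO, 3 libraries) or were unmodified 4T1 cells (WT, 3 libraries), and lungs were taken after 7 days and after perfusion with 20 mL of PBS. The mice themselves are not labelled as edited, so KO describes the tumour cells and both groups have host cells with an intact clock as far as the labels say. Whether the KO line is 1 clone or a pool, the age of the mice and the hour of day at which lungs were taken could not be read from the sources used here. Cd274, the gene of PD-L1, had 97.4, 197 and 301 CPM (counts scaled to library size) in KO lungs against 62.6, 53.6 and 74.3 CPM in WT lungs, so every KO library lay above every WT library, opposite to the direction a loss of its RNA would give. The log2 difference was 1.65 ± 0.42 (SE), which did not pass by edgeR (adjusted p = 0.161) but passed with DESeq2 (adjusted p = 0.0113), with limma-voom (adjusted p = 0.0324), without the low-count filter (edgeR adjusted p = 1.05e-33), with robust=FALSE (edgeR adjusted p = 0.0149) and without KO replicate 1 (edgeR adjusted p = 1.86e-05). Host cells keep the gene and an edited allele can still give RNA, so its level in whole lung does not check the labels, and KO and WT lungs are throughout the lungs so labelled. Loss of PD-L1 and any other difference between the injected lines cannot be told apart. RNA of clock genes changes with the hour of day. Differences between groups or libraries therefore cannot be told apart from differences in the hour at which lungs were taken.

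The circadian clock is a feedback loop of transcription that runs in nearly every mammalian cell. CLOCK, or its relative NPAS2, pairs with BMAL1, the product of Arntl, and the dimer binds E-box sequences and switches on the Per and Cry genes, Nr1d1 and Dbp. PER and CRY proteins return to the nucleus and repress the dimer, and REV-ERB alpha, the product of Nr1d1, represses Arntl, so that Arntl and Nr1d1 RNA peak at opposite times of day in mouse tissues. In the mouse lung this clock is well known to act in the airway epithelium, where it sets the daily rhythm of neutrophil recruitment.

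None of the 10 clock genes passed edgeR's quasi-likelihood test between KO and WT lungs. DESeq2 called 1 of them (Clock) as lower, where it called 1.66% of all genes as lower. The differences with the smallest p-values were modest ones toward lower RNA in KO lungs. Clock came closest, at 89.6 ± 5.01 CPM in KO lungs and 122 ± 6.49 CPM in WT lungs (SD, n = 3 each), and all KO libraries lay below all WT libraries. Arntl was at 28.8 ± 2.23 CPM in KO lungs and 36.0 ± 2.29 CPM in WT lungs, again with no overlap, and Cry1 at 16.8 ± 3.91 CPM in KO lungs and 24.7 ± 3.72 CPM in WT lungs. Nr1d1 and Dbp were the only members with a positive difference, and neither passed. Dbp had all KO libraries above all WT libraries by a narrow margin. Of all genes tested, 9.40% had all KO libraries below all WT libraries and 10.3% had them above. In RNA of a whole organ, fewer cells that express a gene and less RNA of it per cell cannot be told apart.

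The promoters of the 4 members with the smallest p-values in the comparison of KO with WT lungs are shown, a choice made by p-value alone. Clock and Arntl lie among the activators of the loop and Cry1 and Cry2 among the repressors. Each is the RefSeq window of 300 bases on build GRCm38.p6, from 250 bases before to 50 bases after the start site, read 5′ to 3′ on the strand of the gene. The Clock window is chr5:76304743-76305042 on the minus strand, the Arntl window chr7:113207215-113207514 on the plus strand, the Cry1 window chr10:85185005-85185304 on the minus strand and the Cry2 window chr2:92434020-92434319 on the minus strand. Capitals mark exact matches to the 6 searched motifs.
Clock: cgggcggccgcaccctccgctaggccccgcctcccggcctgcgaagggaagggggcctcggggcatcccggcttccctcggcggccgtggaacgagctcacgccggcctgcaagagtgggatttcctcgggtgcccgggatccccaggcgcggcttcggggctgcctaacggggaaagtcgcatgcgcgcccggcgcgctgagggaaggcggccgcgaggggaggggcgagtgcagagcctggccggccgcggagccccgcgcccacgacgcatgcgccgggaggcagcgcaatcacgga
Arntl: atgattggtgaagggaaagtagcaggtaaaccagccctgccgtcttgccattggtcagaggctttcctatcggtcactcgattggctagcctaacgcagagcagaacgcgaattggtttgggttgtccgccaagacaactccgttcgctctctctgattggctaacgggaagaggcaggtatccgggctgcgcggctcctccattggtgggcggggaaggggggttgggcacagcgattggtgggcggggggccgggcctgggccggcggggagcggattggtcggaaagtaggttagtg
Cry1: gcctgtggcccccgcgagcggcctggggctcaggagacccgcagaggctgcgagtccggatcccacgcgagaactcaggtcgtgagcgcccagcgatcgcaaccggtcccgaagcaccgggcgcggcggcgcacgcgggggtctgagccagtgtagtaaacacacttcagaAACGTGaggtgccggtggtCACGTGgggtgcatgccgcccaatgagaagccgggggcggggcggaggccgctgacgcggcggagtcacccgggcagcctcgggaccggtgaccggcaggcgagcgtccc
Cry2: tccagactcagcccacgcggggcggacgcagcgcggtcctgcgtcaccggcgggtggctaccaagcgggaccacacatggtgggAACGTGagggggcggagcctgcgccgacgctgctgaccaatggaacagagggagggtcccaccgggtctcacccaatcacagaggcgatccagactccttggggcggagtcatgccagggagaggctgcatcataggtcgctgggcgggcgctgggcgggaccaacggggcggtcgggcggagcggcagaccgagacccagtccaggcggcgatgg

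The Cry1 window held the E-box CACGTG with its first base at position -60 from the start site and, on the opposite strand, the E-box variant CACGTT at position -79. The Cry2 window held CACGTT on the opposite strand at position -166. The windows of Clock and Arntl held no match. Motifs were searched on both strands and do not overlap each other in these windows. The other motifs searched were the D-box TTATGTAA, bound by DBP and its relatives, the extended response element of ROR and REV-ERB receptors, the cAMP response element TGACGTCA, and the full palindromic glucocorticoid response element. Of the 10 members, 9 had a window in the table, all but Per2. Among these, CACGTG was found in 2 of 9 windows (Per1 and Cry1) and in 7.15% of all 32851 windows, and CACGTT in 3 of 9 (Cry1, Cry2 and Nr1d1) and in 4.68% of all. The D-box was found at 2 positions of the Per3 window, -205 and -158, and in 0.938% of all windows. The remaining 3 motifs had no exact match among the 9, and were found in 0.219%, 1.79% and 0.00913% of all windows in the order given.

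Libraries held 14711459 to 16932114 counts. The deposited counts came from paired-end reads that the authors aligned with STAR and counted per gene with HTSeq. Defining genes of the lung were present, for example the surfactant gene Sftpc at 7783 ± 1063 CPM in KO lungs. The comparison was made with the quasi-likelihood test of edgeR on all 15191 genes with sufficient counts, with Benjamini-Hochberg adjustment and a threshold of 0.05, and differences are given as log2 fold changes, KO minus WT, with their standard error (SE). A total of 221 genes passed, which is 1.45% of all genes tested (1.12% higher and 0.336% lower in KO lungs). This count fell to between 22 and 36 higher and between 2 and 5 lower genes without WT replicate 1, WT replicate 2, KO replicate 2 or KO replicate 3, and grew to 404 higher and 174 lower genes without KO replicate 1.

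All 10 members had enough counts to be tested. By edgeR, 0 of 10 passed in either direction, which is to be read against the 1.45% of all genes that did. At an unadjusted p under 0.05, 3 of 10 were lower in KO lungs (Clock, Arntl and Cry1) and 0 were higher, against 6.33% and 8.29% of all genes. DESeq2 called 1 of 10, Clock, as lower, where it called 1.66% of all genes as lower, and limma-voom called 0 of 10, where it called 1.37% of all genes in either direction. The median log2 difference of the 10 members was -0.22, with 8 negative and 2 positive, and that of all genes tested was 0.01.

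**Figure D1:**
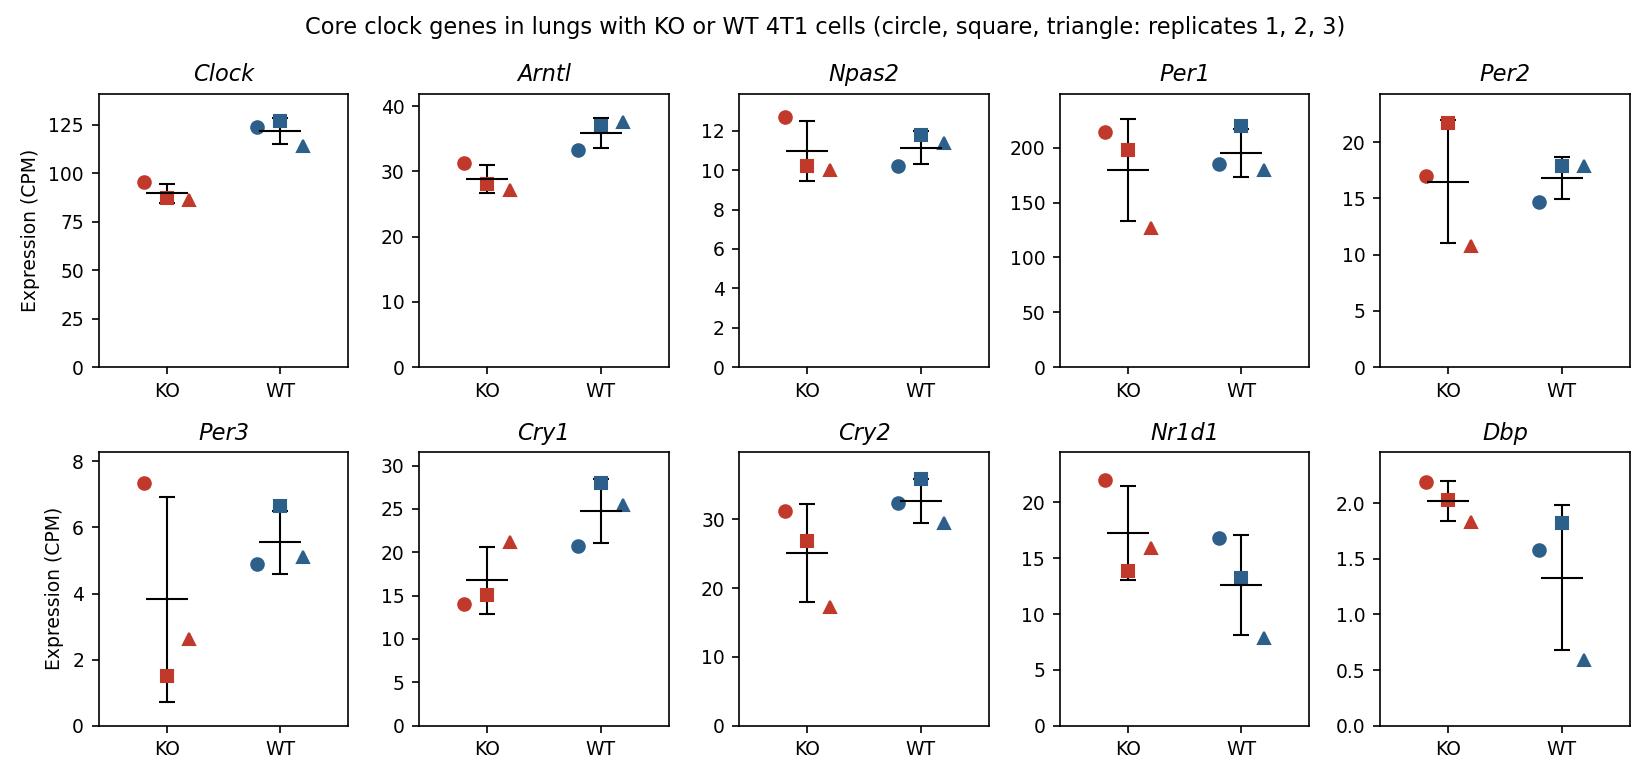
Expression in CPM (y axis, from 0) of each of the 10 core clock genes in the 3 KO and the 3 WT libraries. Points are libraries (circle, square and triangle for replicates 1, 2 and 3), horizontal lines group means and error bars SD; Clock and Arntl are the members in which all KO points lie below all WT points, and Dbp has all KO points above all WT points by a narrow margin.

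The activators were examined first. Clock (ENSMUSG00000029238, chromosome 5, 76209868 to 76304792) encodes the DNA-binding partner of BMAL1. It had 95.4, 87.1 and 86.3 CPM in KO replicates 1 to 3, against 124, 127 and 114 CPM in WT replicates 1 to 3. The groups did not overlap, and the gap between the highest KO and the lowest WT library was wider than the spread within either group. The log2 difference was -0.44 ± 0.10 (SE, 95% interval -0.66 to -0.22), which narrowly missed the threshold (edgeR adjusted p = 0.0548). This verdict depended on the procedure, since Clock passed with RLE size factors in place of TMM scaling (edgeR adjusted p = 0.0490), without the filter on low counts (edgeR adjusted p = 0.0230), with DESeq2 (adjusted p = 0.00711) and without KO replicate 1 (edgeR adjusted p = 0.0331). With any other library left out the edgeR adjusted p lay between 0.0624 and 0.254, and the log2 difference ranged from -0.49 to -0.41 over all alternatives.

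Arntl (ENSMUSG00000055116, chromosome 7, 113207465 to 113314126), the gene of BMAL1, without which the clock of a mouse stops, had 31.3, 28.1 and 27.1 CPM in KO lungs and 33.3, 36.9 and 37.6 CPM in WT lungs. All KO libraries were lower, though KO replicate 1 came close to WT replicate 1. The log2 difference was -0.32 ± 0.14 (95% interval -0.62 to -0.01), and it did not pass (edgeR adjusted p = 0.314). Npas2, which encodes the relative of CLOCK, had 197, 155 and 164 reads in KO lungs and 148, 201 and 173 reads in WT lungs, or 10.9 ± 1.5 CPM in KO and 11.1 ± 0.841 CPM in WT lungs. These groups overlapped fully, with a log2 difference of -0.02 (95% interval -0.49 to 0.45) that could hide a change of moderate size in either direction. Of the 10 members, 2 (Clock and Arntl) had all KO libraries below all WT libraries and 1 (Dbp) had them above, where 9.40% and 10.3% of all genes tested did so.

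Markers of some cell types also differed between KO and WT lungs. In RNA of whole lung, a change in cell number and a change in marker RNA per cell cannot be told apart. Of 8 leukocyte markers, 3 rose in KO lungs (Cd53, Coro1a and Cd52), and their summed level was 1839 to 2383 CPM in KO libraries and 1408 to 1838 CPM in WT libraries. Of 8 monocyte markers, 4 rose (Ly6c2, Ccr2, Fcgr1 and Fcgr4), with a sum of 556 to 795 CPM in KO and 417 to 554 CPM in WT libraries. Of 8 fibroblast markers, 2 fell (the PDGF receptor genes Pdgfra and Pdgfrb). The list summed to 2778 to 3657 CPM in KO and 3631 to 4076 CPM in WT libraries, so the sums overlapped. Its log2 differences were negative for 5 markers and positive for 3 (Lum 0.59, Dcn 0.47 and Tcf21 0.11), and these 3 did not pass. Of 6 club cell markers, 1 rose (Cyp2f2) by edgeR and 3 (Scgb1a1, Scgb3a2 and Cyp2f2) by DESeq2 and by limma-voom, and their sum, mostly Scgb1a1, was 1592 to 3528 CPM in KO and 432 to 985 CPM in WT libraries. DESeq2 called 4 leukocyte and 4 monocyte markers as higher and limma-voom 2 and 3, and both called the same 2 fibroblast markers as lower. Over all genes, DESeq2 called 354 of 14011 as higher and 1.66% as lower, and limma-voom called 1.37% in either direction. By edgeR, 0 of 6 smooth muscle, 0 of 8 endothelial, 0 of 8 alveolar type 2 and 0 of 6 alveolar type 1 markers passed. Of all genes tested, edgeR called 1.12% as higher and 0.336% as lower. At an unadjusted p under 0.05, 3 smooth muscle and 3 endothelial markers, 1 alveolar type 2 and 1 alveolar type 1 marker were lower in KO lungs. Of all genes tested, 6.33% were lower at that limit. In addition, 1 alveolar type 2 marker was higher, against 8.29% of all genes tested. Among these 4 lists DESeq2 called 1 gene, the type 1 gene Cav1, as lower, and limma-voom called 0. The summed smooth muscle markers were at 394 to 506 CPM in KO and 487 to 802 CPM in WT libraries, and the endothelial ones at 6079.5 to 7443 CPM in KO and 6543 to 8273 CPM in WT libraries. No marker of these 8 lists was at 0 in all libraries. Counts sufficed for the test in 7 of 8 keratin and epithelial genes that could mark mammary tumour cells. The same held for 4 of 6 cardiac muscle, 2 of 5 skeletal muscle and 5 of 5 erythroid markers. Of these tested genes, 0 passed by edgeR, DESeq2 or limma-voom and 0 had an unadjusted p under 0.05. The first list, with the untested Krt14, summed to 567 to 615 CPM in KO and 516 to 628 CPM in WT libraries. The part of cell composition in the clock gene differences was not tested.

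The repressors came next, first the Period genes. Per1, an early target of the CLOCK-BMAL1 dimer that is also induced by glucocorticoids and by cAMP, had 214, 198 and 127 CPM in KO lungs and 185, 220.0 and 180.1 CPM in WT lungs. KO replicate 3 was the lowest of the 6 and the other KO libraries lay within the WT range. Its log2 difference was -0.12 ± 0.16 (95% interval -0.47 to 0.23, edgeR adjusted p = 0.800) and turned to 0.07 without KO replicate 3. Per2, whose loss disturbs the daily rhythm of mice, had 17.0, 21.7 and 10.8 CPM in KO lungs and 14.7, 17.9 and 17.9 CPM in WT lungs. KO lungs thus held both the highest and the lowest Per2 value. The log2 difference of -0.03 (95% interval -0.55 to 0.48) was 0.19 without KO replicate 3, and 0.01 without WT replicate 2 or WT replicate 3. Per3, a Period gene that mice can lose with little effect on their rhythm, had 7.34, 1.51 and 2.62 CPM in KO lungs, from 114, 23 and 43 reads, and 4.88, 6.64 and 5.12 CPM in WT lungs. KO replicate 1 was the highest of the 6 libraries and the other KO libraries the lowest. The log2 difference of -0.54 ± 0.48 (95% interval -1.56 to 0.48) was -1.42 without KO replicate 1 and -0.16 without KO replicate 2.

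The Cryptochrome genes encode the proteins that most directly block the CLOCK-BMAL1 dimer. Cry1 (ENSMUSG00000020038, chromosome 10, 85131700 to 85185064) had 14.0, 15.1 and 21.2 CPM in KO lungs and 20.7, 28.0 and 25.5 CPM in WT lungs. The groups touched, since KO replicate 3 lay just above WT replicate 1. The log2 difference of -0.56 ± 0.20 (95% interval -1.0 to -0.13) did not pass (edgeR adjusted p = 0.205). Cry2 had 31.2, 26.8 and 17.3 CPM in KO lungs and 32.4, 35.9 and 29.5 CPM in WT lungs. KO replicate 1 lay within the WT range, KO replicate 2 below it and KO replicate 3 well below it. The log2 difference was -0.38 ± 0.20 (95% interval -0.80 to 0.04, edgeR adjusted p = 0.403), and -0.18 without KO replicate 3. The paralogues differed in which KO library was lowest, while KO replicate 2 lay below the WT range for both. Per exon length, the ratio of Cry1 to Cry2 was 0.848, 1.06 and 2.32 in KO replicates 1 to 3. In WT replicates 1 to 3 it was 1.21, 1.47 and 1.64.

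Nr1d1 and Dbp are direct outputs of the dimer with high daily amplitude. Nr1d1 (chromosome 11, 98767932 to 98775333) had 22.0, 13.9 and 15.9 CPM in KO lungs and 16.8, 13.2 and 7.88 CPM in WT lungs. The groups overlapped, with WT replicate 3 alone at the bottom. The log2 difference of 0.46 ± 0.27 (95% interval -0.12 to 1.04, edgeR adjusted p = 0.475) shrank to 0.21 when WT replicate 3 was left out, and to 0.24 when KO replicate 1 was, and grew to 0.71 without WT replicate 1. Dbp, which encodes a transcription factor that binds D-boxes, had 34, 31 and 30 reads in KO lungs and 23, 31 and 9 reads in WT lungs. This is 2.19, 2.03 and 1.83 CPM in KO lungs and 1.58, 1.82 and 0.591 CPM in WT lungs. The KO libraries lay above the WT libraries in CPM by a margin smaller than the counting error of such reads, and WT replicate 3 was again lowest. The log2 difference of 0.59 ± 0.62 (95% interval -0.73 to 1.92) was 0.24 without WT replicate 3 and 0.89 without WT replicate 2.

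Of the exonic bases of Nr1d1, 8.55% overlap Thra on the opposite strand, of those of Dbp 18% overlap Sphk2, and of those of Cry2 4.67% overlap the noncoding gene D930015M05Rik. No source used here states the strand setting of the counting, so reads there cannot be assigned with certainty. Thra had a log2 difference of -0.12 ± 0.11 and Sphk2 of 0.15 ± 0.19, and neither passed (edgeR adjusted p = 0.689 and 0.775).

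**Figure D2:**
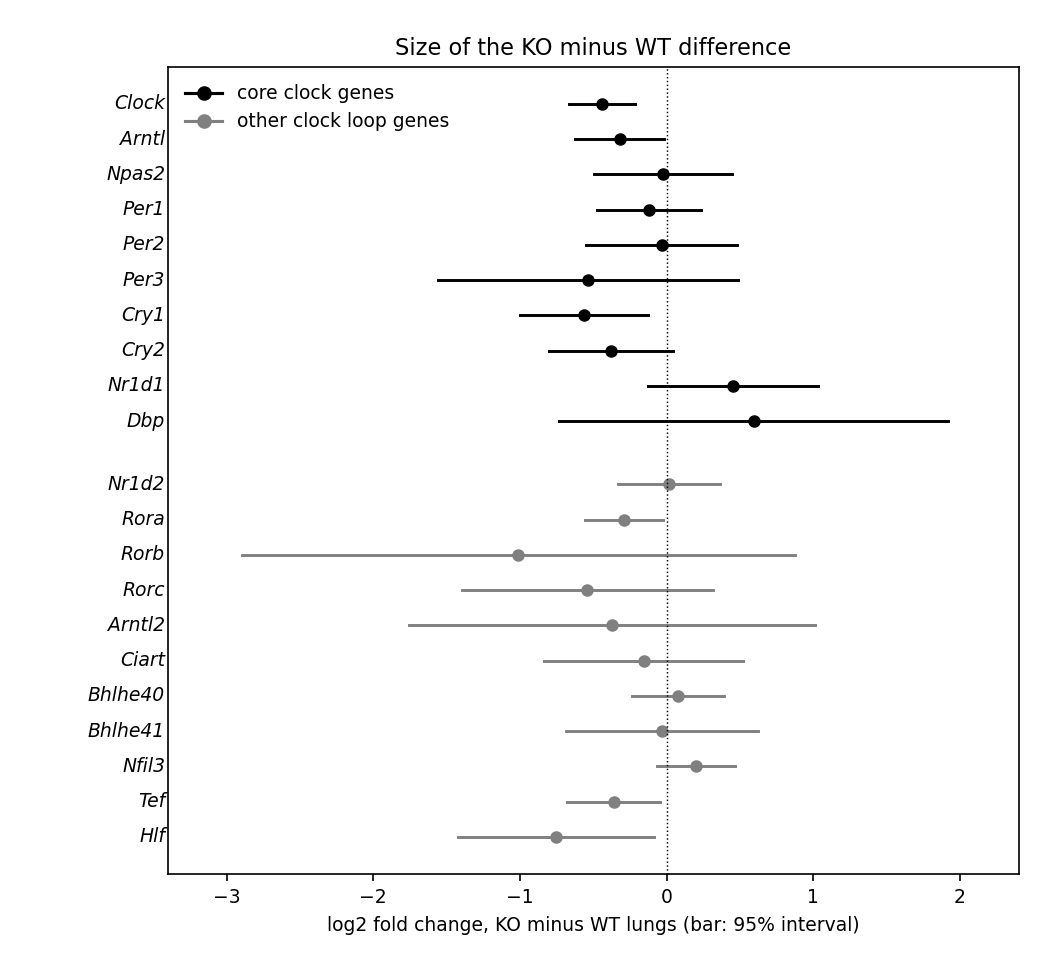
The log2 fold change (x axis, KO minus WT lungs; points) and its 95% interval (bars) for the 10 core clock genes, in black, and 11 other genes of the clock loop, in grey. The interval lies below 0 for Clock, Arntl and Cry1 and for Rora, Tef and Hlf, none of which passed after adjustment over all genes, and the widest intervals are those of genes with few reads.

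Per exon length, Per1 was the most abundant member in both groups, at 31.9 ± 8.25 FPKM (CPM per kilobase of exon) in KO lungs and 34.7 ± 3.85 FPKM in WT lungs, clear of the next gene in every library. Clock followed in both groups at 6.53 ± 0.365 FPKM in KO and 8.85 ± 0.473 FPKM in WT lungs, and overlapped the next gene in each. In KO lungs the order then ran Nr1d1, Cry1, Cry2, Arntl, Per2 and Npas2, and all neighbours among these overlapped. In WT lungs it ran Cry1, Cry2, Arntl, Nr1d1, Per2 and Npas2, where Cry1 was clear of Cry2 and Per2 of Npas2. Per3 and Dbp came last in both groups and overlapped each other, and every library was below the level of Npas2. Dbp was at 0.674 ± 0.0602 FPKM in KO and 0.445 ± 0.218 FPKM in WT lungs, and Per3 at 0.398 ± 0.322 FPKM in KO and 0.577 ± 0.0990 FPKM in WT lungs.

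**Figure D3:**
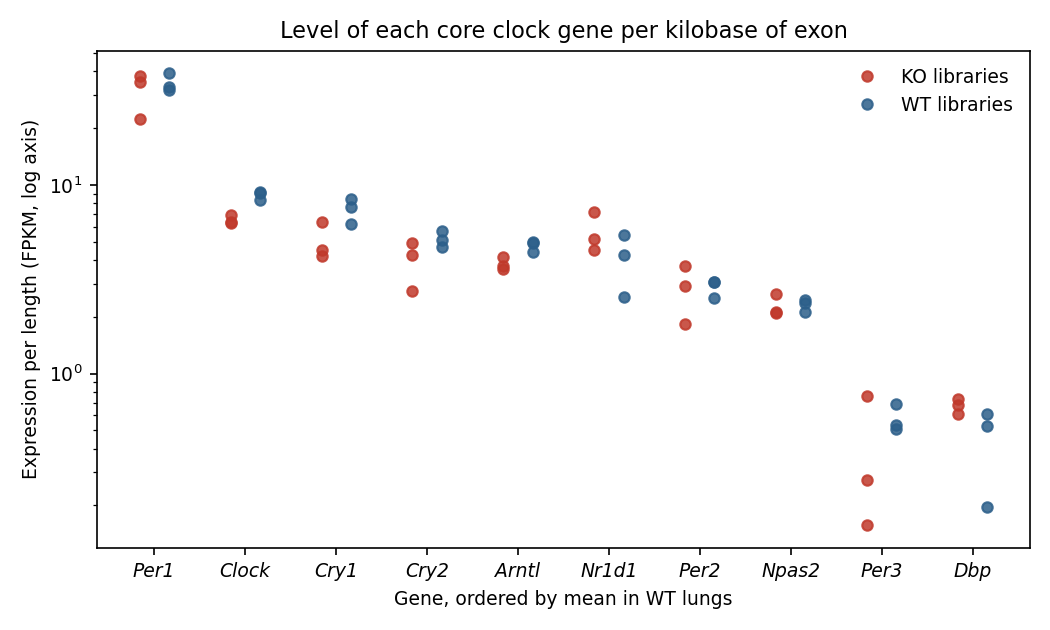
Level per exon length (FPKM, log axis) of the 10 core clock genes, ordered by their mean in WT lungs. Each point is a library, KO left of WT for each gene; Per1 stands above all others, and Per3 and Dbp below all others.

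The ratio of Arntl to Nr1d1 sets the opposing phases of the loop side by side within a library. It was 0.582, 0.828 and 0.696 in KO replicates 1 to 3, against 0.813, 1.15 and 1.95 in WT replicates 1 to 3, per exon length. KO replicate 2 lay just above WT replicate 1, so the groups overlapped, and WT replicate 3 stood apart at the high end. The ratio of Arntl to Dbp was 5.70, 5.51 and 5.89 in KO lungs and 8.39, 8.07 and 25.3 in WT lungs, where the last value rests on 9 Dbp reads. Both ratios reuse the values of single genes given above and were not tested. They also change with the hour at which lungs were taken, which is not known here for any library.

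Members differed widely in how they varied between libraries of a group. The biological coefficient of variation estimated by edgeR was 10.1% for Clock, lower than for all but 3.49% of genes tested, and 12.7% for Arntl. It was 15.0% for Per1, 17.6% for Cry1, 17.5% for Cry2, 18.4% for Npas2, 20.7% for Per2 and 23.3% for Nr1d1. Per3 and Dbp, the members with the fewest reads, had 40.4% and 44.3%, at percentiles 84.4 and 86.9 of all genes tested.

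Much of the spread lay in single libraries. KO replicate 3 held the lowest value of the 6 libraries for 6 of 10 members (Clock, Arntl, Npas2, Per1, Per2 and Cry2), where it held the lowest for 21.0% of all genes tested. For Clock, Arntl and Npas2 it was close to KO replicate 2. From the mean of the 6 libraries in log2 CPM, KO replicates 2 and 3 deviated by -0.26 and -0.27 for Clock. The deviations were -0.19 and -0.25 for Arntl and -0.11 and -0.13 for Npas2. KO replicate 3 was also lowest for 5 of 11 other loop genes, among them Ciart, Tef and Bhlhe41. WT replicate 2 was highest for 4 members (Clock, Per1, Cry1 and Cry2) and KO replicate 1 for 4 (Npas2, Per3, Nr1d1 and Dbp), against 18.5% and 12.8% of all genes. WT replicate 3 was lowest for Nr1d1 and Dbp and highest for Arntl, where it was lowest for 14.9% and highest for 14.1% of all genes. The deviation of KO replicate 3 from the mean of the 6 libraries was -0.54 for Per1, -0.59 for Per2 and -0.70 for Cry2 on the log2 CPM scale, while Cry1 was at 0.08 and Nr1d1 at 0.15, so the members did not all shift together in that library.

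**Figure D4:**
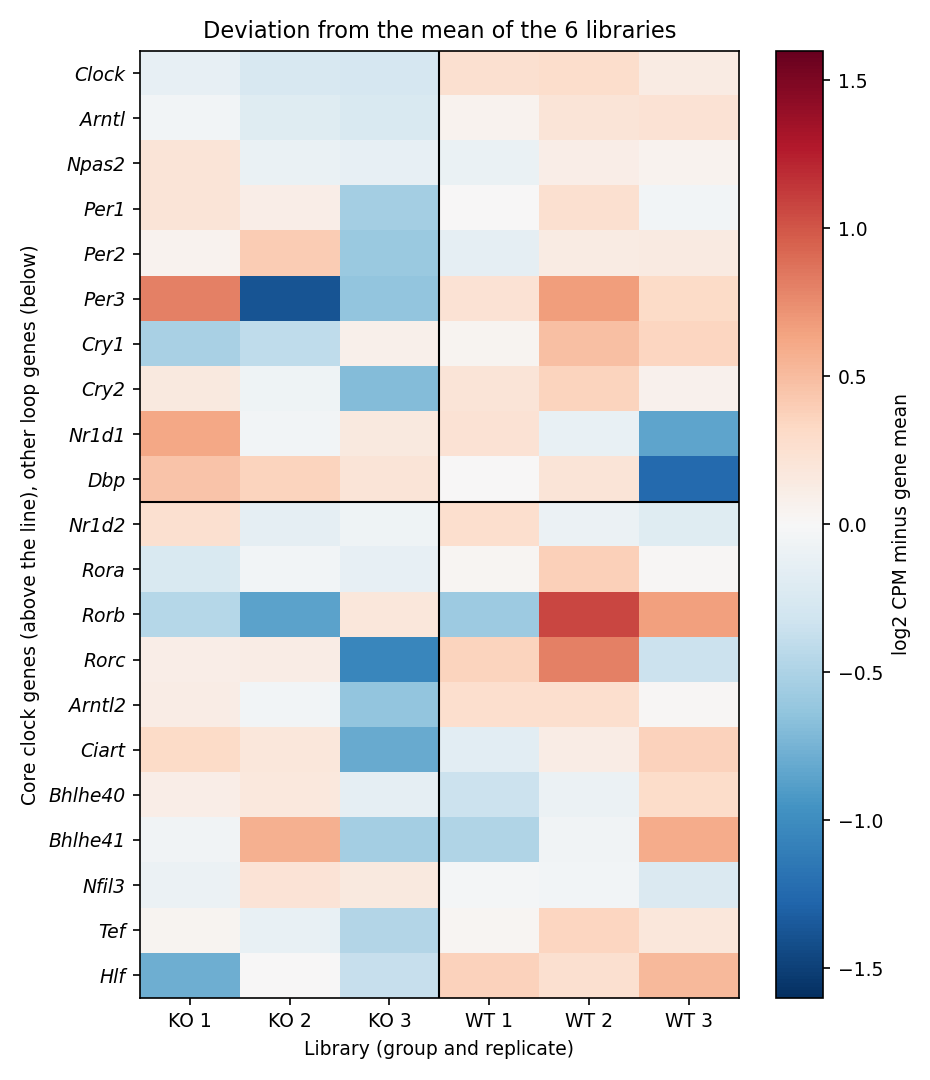
Deviation of each library (columns, KO left of WT) from the mean of the 6 libraries in log2 CPM (colour) for the 10 core clock genes above the line and 11 other loop genes below it. KO replicate 3 is low for Per1, Per2 and Cry2 but not for Cry1 or Nr1d1, and WT replicate 3 is low for Nr1d1 and Dbp.

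The other genes of the clock gave a similar picture of small differences. Of 11 other genes of the loop, 0 passed by edgeR, DESeq2 or limma-voom, 3 were lower at an unadjusted p under 0.05 (6.33% of all genes tested were), and their median log2 difference was -0.29. The 3 were Tef, Hlf and Rora. Tef and Hlf encode relatives of DBP that bind the same D-box, and Rora encodes a receptor that activates Arntl. Hlf had 3.09, 5.37 and 4.15 CPM in KO lungs and 7.01, 6.46 and 7.81 CPM in WT lungs, and the groups did not overlap (log2 difference -0.75 ± 0.31, edgeR adjusted p = 0.278). Rora had 72.6, 82.8 and 78.2 CPM in KO lungs and 87.9, 111 and 86.8 CPM in WT lungs, also with no overlap (-0.29 ± 0.12, edgeR adjusted p = 0.287). These 2 of 11 had all KO libraries below all WT libraries, as did 9.40% of all genes tested. Tef had 57.0, 50.8 and 39.8 CPM in KO lungs and 56.5, 70.2 and 62.8 CPM in WT lungs, with KO replicate 1 just inside the WT range (-0.36 ± 0.15, edgeR adjusted p = 0.269). Nr1d2, the close relative of Nr1d1, was at 40.1 ± 6.05 CPM in KO and 39.7 ± 7.02 CPM in WT lungs, with a 95% interval of -0.33 to 0.36.

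Of 11 genes whose products modify clock proteins, such as casein kinases that phosphorylate PER, 0 passed by edgeR, DESeq2 or limma-voom and 0 had an unadjusted p under 0.05. Their median log2 difference was -0.04, with a range of -0.54 to 0.17. The smallest p-values were those of Gsk3b, a kinase of several clock proteins (-0.17 ± 0.11, edgeR adjusted p = 0.511), Timeless, the homologue of a fly clock gene (0.17 ± 0.16, edgeR adjusted p = 0.688), and Btrc, a ubiquitin ligase subunit that acts on PER (-0.16 ± 0.18, edgeR adjusted p = 0.743).

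Of 7 output genes, which follow the clock in many mouse organs, 1 rose and 6 did not pass by edgeR. Of all genes tested, 1.12% were called higher. Nampt, which encodes the rate-limiting enzyme of NAD salvage and is also induced in inflamed tissue, had 112, 145 and 186 CPM in KO lungs, against 88.2, 73.0 and 81.3 CPM in WT lungs. Every KO library lay above every WT library, as for 10.3% of all genes tested. The log2 fold change was 0.87 ± 0.16 (95% interval 0.53 to 1.20, edgeR adjusted p = 0.0168). The call was lost without WT replicate 1, WT replicate 2, KO replicate 2 or KO replicate 3, at edgeR adjusted p of 0.0774, 0.112, 0.0945 and 0.0700. The summed leukocyte and monocyte markers given above were also higher in the KO libraries, but the groups nearly met. The lowest KO and highest WT sums were 1839 and 1838 CPM for leukocyte markers and 556 and 554 CPM for monocyte markers. The part of those cells in the level of Nampt was not tested. Tsc22d3, which is induced by glucocorticoids, had 105, 116 and 94.9 CPM in KO lungs and 147, 156 and 92.1 CPM in WT lungs and did not pass (-0.32 ± 0.16, edgeR adjusted p = 0.397), with -0.18 without WT replicate 2 and -0.52 without WT replicate 3. Noct, a phosphatase gene with a strong daily rhythm, did not pass either (0.31 ± 0.19, edgeR adjusted p = 0.489), and was at 0.07 without KO replicate 2.

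Signals that reset peripheral clocks were followed through their own target genes. Of 10 glucocorticoid-induced genes, 0 passed by edgeR, DESeq2 or limma-voom, 2 were lower at an unadjusted p under 0.05 (Klf9 and Dusp1; 6.33% of all genes tested were lower), and the median log2 difference was -0.11. Klf9, which is regulated by both glucocorticoids and the clock, had 187, 151 and 137 CPM in KO lungs and 212, 197 and 169.9 CPM in WT lungs (-0.29 ± 0.13, edgeR adjusted p = 0.322). Of 10 immediate early genes, which respond to cell stimulation and to tissue handling within minutes, 0 passed by the same 3 tools and 2 were lower at an unadjusted p under 0.05 (Egr1 and Dusp1, again against 6.33% of all genes), with a median of -0.08. Egr1 was at 2627 ± 353 CPM in KO and 3148 ± 109.9 CPM in WT lungs (-0.26 ± 0.12, edgeR adjusted p = 0.324), Dusp1 at 1231 ± 131 CPM in KO and 1459.5 ± 89.3 CPM in WT lungs (edgeR adjusted p = 0.333), and Egr2 at 98.9 ± 6.38 CPM in KO and 88.4 ± 23.1 CPM in WT lungs (edgeR adjusted p = 0.699). Of 8 temperature-responsive genes, 0 passed by these tools and 1 was higher at an unadjusted p under 0.05, where 8.29% of all genes tested were, with a median of 0.15. That gene was Rbm3, a cold-inducible RNA-binding protein gene, with 155, 164 and 201 CPM in KO lungs against 147, 122 and 134 CPM in WT lungs, without overlap, as for 10.3% of all genes tested (0.37 ± 0.12, edgeR adjusted p = 0.162). Its relative Cirbp (0.21 ± 0.15) and the chaperone gene Hsph1 (0.44 ± 0.33) overlapped between the groups and did not pass (edgeR adjusted p = 0.555 and 0.609), though Hsph1 passed without the filter on low counts (adjusted p = 0.0345).

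Among the genes whose pattern was most like that of Arntl across the 6 libraries were Jag1, Btbd7, Prr12 and Smarca2, of 12556 genes compared. Likeness was the root mean square difference of log2 CPM after each gene was centred on its own mean, and it was 0.0338 for Jag1 and 0.0392 for Smarca2. These 4 genes had every KO library below every WT library, as did 9.40% of all genes tested. This follows from their choice, since Arntl itself has that order and they were picked for likeness to it. Their log2 differences ran from -0.35 (Jag1) to -0.29 (Prr12), with edgeR adjusted p between 0.141 and 0.295. Smarca2 passed with DESeq2 (adjusted p = 0.0255) and without KO replicate 1 (edgeR adjusted p = 0.0305). For Dbp the most alike of 12557 genes were Anxa9 (0.0753), Ucp3 (0.152), Pqlc2, Pus7l and Snhg20 (0.188), which averaged between 3.51 and 6.37 CPM in KO lungs and between 2.24 and 4.44 CPM in WT lungs. Their edgeR adjusted p lay between 0.497 and 0.827. These likenesses describe 6 libraries and were not tested.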

How the data were processed

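RNA of 6 perfused lungs (3 KO, 3 WT) was analysed. The deposited values were raw counts of reads for each Ensembl gene, which the authors made with STAR 2.5 (paired-end reads, build GRCm38, also named mm10) and then HTSeq 0.6.1, as stated per the labels' protocols. The sources used here state neither the annotation release nor the strand setting, counting mode or filters. Symbols, coordinates (GRCm38, counted from 1) and exonic lengths came from GENCODE M21 by Ensembl identifier, which matched 34490 of 35275 rows; 0 rows named no gene.

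Counts were tested with edgeR 4.0.16 in R 4.3.3 (TMM scaling, filterByExpr with a minimum count of 10, robust glmQLFit, group as the one term), KO minus WT, two-sided, with Benjamini-Hochberg adjustment over 15191 genes. The SE was taken as the absolute log2 fold change over the square root of F. At 3 counts, a count of 0 allows 0.176 to 0.206 CPM per library, which covers counting error only. No libraries were identical, and pairs differed by 14.7 to 51.8 times the sampling variance (chi-square per degree of freedom). The labels do not say that each library is 1 animal, and p-values thus reflect only the spread among these samples, which may be technical. DESeq2 1.42.0, limma-voom (limma 3.58.1), other scalings and filters, robust=FALSE, a replicate block and leaving out each library were the alternatives.

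The members and lists were chosen with earlier results of these data known. Text names all members, each gene of the other lists that passed or had one of the 3 smallest p-values of its list, and the 5 genes most like Arntl (1 is not reported here) and Dbp (mean log2 CPM of 1 or more, prior count 2, no Gm, Rik or pseudogene symbols). Nr1d2 and genes named only by which library was lowest were added after their values were seen. Promoter windows came from RefSeq (GRCm38.p6). In 3 simulations of the 15191 genes with 200 changed genes each, drawn at a mean log2 CPM above 1, the test recovered 32.8%, 70.9% and 85.1% of genes changed by 1.5-, 2- and 3-fold, and 7.25% of calls were false.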

Additional observations from a re-analysis of the deposited data

How the results depend on the processing

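With 3 libraries a group, differences below 2-fold were often missed in the simulations, and Dbp and Per3 rested on 9 to 114 reads a library, so misses there do not show equal levels. No core clock gene was called higher under any alternative. The number called lower, 0 in the report, was 1 (Clock) with RLE size factors, without the low-count filter, with DESeq2 and with the replicate block, and 0 to 1 with 1 library left out. Upper quartile scaling, library size alone, a filter of CPM of at least 1 in 3 libraries, limma-voom and robust=FALSE called 0. The other clock genes called higher numbered 0 to 1 with 1 library left out. Over all genes, 578 were higher and 225 lower without the filter, 354 and 233 with DESeq2, 309 and 96 with the replicate block, and 22 to 404 higher and 2 to 174 lower with 1 library left out. Equal replicate numbers are not stated to be pairs, and deviations of same-numbered libraries correlated at 0.0273, -0.0190 and 0.00908, so they were not treated as pairs. With 1 library left out, log2 differences changed sign and ranged from -0.14 to 0.03 for Npas2, -0.27 to 0.07 for Per1, -0.28 to 0.19 for Per2, -0.30 to 0.03 for Btrc, -0.01 to 0.37 for Egr2, -0.02 to 0.30 for Sphk2, -0.10 to 0.47 for Pqlc2 and -0.03 to 0.53 for Snhg20; the cause was not tested. Others kept their sign but moved by over 1.5 times, with ranges of -0.48 to -0.23 for Tef, -0.36 to -0.17 for Rora, -0.42 to -0.19 for Klf9, -0.28 to -0.11 for Gsk3b, 0.01 to 0.30 for Timeless, 0.05 to 0.31 for Cirbp, 0.26 to 0.73 for Hsph1, 0.31 to 0.96 for Anxa9, 0.31 to 0.78 for Ucp3, 0.27 to 0.86 for Pus7l and -0.21 to -0.05 for Thra. Among 585 values of named genes over the 15 alternatives, 556 kept their direction and side of the threshold, and the 12 that changed direction came from leaving out a library. The median of all genes moved by under 0.1 on the log2 scale.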
